A study of Homo sapiens with 2 samples.

Results

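The expression of 10 genes of the actin cytoskeleton and its contractile machinery was followed in 2 human embryonic stem cell lines: ACTB, ACTG1, ACTA2, TAGLN, CNN1, MYL9, TPM1, TPM2, CALD1 and SRF. They were chosen by symbol, 10 of the 25436 symbols in the table, and all 10 averaged at least 1 FPKM (fragments per kilobase of transcript, scaled to the size of the library). The lines, HuES53 and HuES64, were diploid, undifferentiated and below passage 20, were derived after in vitro fertilization, and were the controls of a study on haploid human embryonic stem cells. Each line gave 1 library of polyadenylated RNA. No value below therefore carries a replicate error, no test was possible, and every difference describes these 2 libraries. In bulk RNA, fewer cells of a type and less RNA per cell cannot be told apart.

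Actin monomers assemble into filaments, and myosin II pulls on those filaments under the control of its light chains and of proteins such as tropomyosin, caldesmon and calponin that lie along the filament. SRF (serum response factor) is a transcription factor that binds a DNA sequence called the CArG box in many genes of this machinery. Its cofactors of the MRTF family are held back by free actin monomers, so that the state of the actin pool feeds back on actin genes. ACTB and ACTG1 are the cytoplasmic actins of all cells, and ACTA2, TAGLN, CNN1 and MYL9 are best known from smooth muscle.

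The promoter table of RefSeq (build GRCh38.p14) matched 7 of the 10 genes, with 13 windows that run from 250 bases before to 50 bases after a start. It has no entry for ACTB, TAGLN or MYL9. A CArG box, a central run of A or T between a pair of C and a pair of G, has the same form on both strands. It was present in 2 of the 13 windows, those of ACTG1 and the upstream start of SRF, against 1.29% of all 35116 windows. With boxes that have 1 letter of the central run replaced by C or G also counted, it was 4 of 13 windows, against 8.13% of all. The added windows were one of 2 for ACTA2, with such boxes starting at -121 and -71, and one of 4 for CALD1, with a box starting at -26. The stretches before the start are shown because they hold the sequence that SRF, itself one of the 10 genes, recognises; capitals mark the exact boxes in ACTG1 and SRF and the boxes with 1 letter off in ACTA2.
ACTG1, chr17:81512800-81512899, minus strand: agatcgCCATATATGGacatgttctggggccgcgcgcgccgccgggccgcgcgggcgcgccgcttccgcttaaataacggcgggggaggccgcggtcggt
SRF, chr6:43171169-43171268, plus strand: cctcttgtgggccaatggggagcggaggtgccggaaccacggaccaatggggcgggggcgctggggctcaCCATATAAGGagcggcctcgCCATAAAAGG
ACTA2, chr10:88952774-88952973, minus strand: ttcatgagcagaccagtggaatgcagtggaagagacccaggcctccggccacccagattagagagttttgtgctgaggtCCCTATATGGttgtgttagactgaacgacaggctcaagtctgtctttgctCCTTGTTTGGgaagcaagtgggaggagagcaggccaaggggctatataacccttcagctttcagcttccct
The box of ACTG1 starts 94 bases before the start (-94), and those of SRF at -30 and -10. A match is a description of these letters, and binding was not measured. The 10 genes were picked as actins and contractile SRF targets, so the shares of windows are not an independent test. The 13 windows are not separate cases, as 4 of them belong to CALD1.

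The actins are close copies, which bears on how far fragments can be assigned to one of them. The first 36 coding bases (GENCODE release 29, build GRCh38) are shown for both cytoplasmic actins and for 3 muscle actins, with capitals where ACTG1 differs from ACTB, and where ACTA1 and ACTC1 differ from ACTA2.
ACTB, chr7:5529622-5529657, minus strand: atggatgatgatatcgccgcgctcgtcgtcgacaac
ACTG1, chr17:81512319-81512354, minus strand: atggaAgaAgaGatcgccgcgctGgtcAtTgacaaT
ACTA2, chr10:88948895-88948930, minus strand: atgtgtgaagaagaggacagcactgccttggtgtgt
ACTA1, chr1:229433080-229433115, minus strand: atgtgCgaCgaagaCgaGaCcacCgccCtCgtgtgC
ACTC1, chr15:34794773-34794808, minus strand: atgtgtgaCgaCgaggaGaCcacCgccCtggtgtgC
Over the whole coding part of 1125 bases, ACTG1 was 91.3% identical to ACTB. ACTA1 and ACTC1 were 84.6% and 85.5% identical to ACTA2 over 1131 bases. Of the 50-base words in the ACTB transcript, 10.3% also occurred in transcripts of 17 other genes, and of those in ACTG1 3.6% occurred in 9 other genes. For the other 8 of the 10 genes, no 50-base word of the transcript chosen occurred in another gene. Among the paralogs checked, it was 22.9% for TPM4, 9.4% each for MYL12A and MYL12B, 9.3% for TAGLN2 and 7.3% for TPM3. For the rest it was 1.9% or less. These figures count exact matches only, in 1 transcript per gene.

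The cytoplasmic actins were among the most abundant transcripts in both lines. ACTB (chromosome 7, 5566779 to 5570232 in the coordinates of the deposited table, whose build is not stated) stood at 3040 FPKM in HuES53 and 3424 FPKM in HuES64. ACTG1 (chromosome 17, 79476997 to 79479892) stood at 3051 FPKM in HuES53 and 3060 FPKM in HuES64. ACTB ranked 9 in HuES53 and 19 in HuES64 among all symbols, and ACTG1 ranked 8 and 29. ACTG1 was level, and ACTB was 1.13-fold lower in HuES53.

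The ACTB value depends on a second row of the table. LOC100505829 (chromosome 7, 5566786 to 5573677) covers nearly the whole ACTB locus and stood at 2999 FPKM in HuES53 and 4231 FPKM in HuES64. Summed, both rows came to 6039 FPKM in HuES53 and 7656 FPKM in HuES64, 1.27-fold lower in HuES53. The ACTB row held 50.3% of that sum in HuES53 and 44.7% in HuES64. The sum was 1.98 times the ACTG1 level in HuES53 and 2.50 times it in HuES64, whereas the ACTB row alone was close to ACTG1 in both. How fragments were shared between the overlapping rows is not given in the sources used here.

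ACTA2, the smooth muscle alpha-actin (chromosome 10, 90694831 to 90751147), was the lowest of the 10 genes. It stood at 11.5 FPKM in HuES53 and 9.10 FPKM in HuES64, 1.24-fold higher in HuES53, where it ranked 6733, against 7340 in HuES64. Its locus overlaps FAS, a death receptor gene at 1.51 FPKM in HuES53 and 1.64 FPKM in HuES64. The other muscle actins were all higher than ACTA2. ACTA1, the skeletal muscle alpha-actin, stood at 266 FPKM in HuES53 and 117 FPKM in HuES64, 2.26-fold higher in HuES53 and the one actin past 2-fold. ACTC1, the cardiac alpha-actin, stood at 56.3 and 55.0 FPKM in HuES53 and HuES64, and ACTG2, the smooth muscle gamma-actin, at 46.8 and 61.8 FPKM. Of the summed FPKM of the actins, ACTB and ACTG1 made up 47.0% and 47.1% in HuES53 and 50.9% and 45.5% in HuES64. ACTA1 made up 4.11% in HuES53 and 1.74% in HuES64, and ACTA2 0.178% and 0.135%. With the row overlapping ACTB added to it, ACTA1 made up 2.81% in HuES53 and 1.07% in HuES64.

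**Figure D1:**
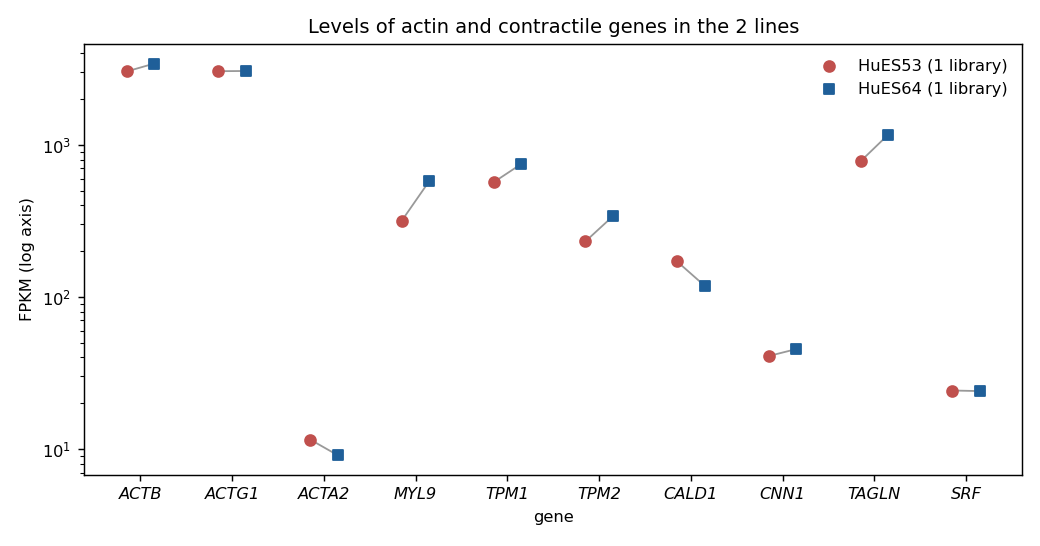
FPKM of each gene on a log axis, with HuES53 as circles on the left and HuES64 as squares on the right, 1 library each. ACTB and ACTG1 lie highest in both lines and ACTA2 lowest, while MYL9 shows the widest gap, at 318 FPKM in HuES53 and 580 FPKM in HuES64.

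MYL9, the regulatory light chain of smooth muscle and non-muscle myosin II, differed most. MYL9 (chromosome 20, 35169897 to 35178226) stood at 318 FPKM in HuES53 and 580 FPKM in HuES64, 1.82-fold lower in HuES53. Its difference of log2(FPKM + 1), HuES53 minus HuES64, was -0.86, and 2.6% of all tested genes had a lower one. The paralogs that also encode regulatory light chains differed less. MYL12A stood at 316 FPKM in HuES53 and 357 FPKM in HuES64, and MYL12B at 423 and 461 FPKM. MYL9 therefore made up 30.1% of the summed regulatory light chains in HuES53 and 41.5% in HuES64. A share of this kind does not depend on how the libraries are scaled. It was not recomputed with the trend of GC content and length, described below, removed. The median GC content was 60.9% for MYL9, 42.8% for MYL12A and 44.3% for MYL12B. With that trend removed, the differences were -0.65 for MYL9, -0.32 for MYL12A and -0.19 for MYL12B.

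Both tropomyosin genes in the set were lower in HuES53. Tropomyosins are rod-shaped dimers that lie along the actin filament and govern the access of myosin and other proteins to it. TPM1 (chromosome 15, 63334838 to 63364114) stood at 568 FPKM in HuES53 and 748 FPKM in HuES64, 1.32-fold lower in HuES53. TPM2 (chromosome 9, 35681990 to 35690053) stood at 232 FPKM in HuES53 and 340 FPKM in HuES64, 1.46-fold lower in HuES53. The other tropomyosin genes were higher or level as deposited. TPM3 stood at 254 FPKM in HuES53 and 200 FPKM in HuES64, and TPM4 was nearly level at 345 and 352 FPKM. With the trend of GC content and length, described below, removed, TPM3 was at 0.28 and TPM4 at -0.18. TPM1 was then at -0.32 and TPM2 at -0.34. Of the summed tropomyosins, TPM1 and TPM2 made up 40.6% and 16.6% in HuES53 and 45.6% and 20.7% in HuES64. TPM3 made up 18.1% in HuES53 and 12.2% in HuES64. TPM1 was 2.45 times as high as TPM2 in HuES53 and 2.20 times in HuES64. The table gives 1 value per gene, so the muscle and non-muscle isoforms that TPM1, TPM2 and CALD1 encode cannot be told apart. TPM1 overlaps LOC100128979, which stood at 2.97 FPKM in HuES53 and 4.72 FPKM in HuES64.

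CALD1 went the other way from MYL9, TAGLN and the tropomyosin pair. CALD1 encodes caldesmon, which binds actin and tropomyosin and holds back the myosin ATPase. CALD1 (chromosome 7, 134464164 to 134655480) stood at 171 FPKM in HuES53 and 118 FPKM in HuES64, 1.44-fold higher in HuES53, and 88.2% of tested genes had a lower difference. MYL9 was 1.86 times the level of CALD1 in HuES53 and 4.90 times in HuES64. CNN1, the smooth muscle calponin (chromosome 19, 11649579 to 11661138), stood at 40.9 FPKM in HuES53 and 45.4 FPKM in HuES64. It was the least abundant calponin and made up 10.5% of their sum in HuES53 and 10.7% in HuES64. CNN2 stood at 224 FPKM in HuES53 and 257 FPKM in HuES64, and CNN3 at 125 and 121 FPKM.

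TAGLN, which encodes the actin-bundling protein transgelin (SM22), was the most abundant of these genes after the cytoplasmic actins. TAGLN (chromosome 11, 117070040 to 117075508) stood at 779 FPKM in HuES53 and 1165 FPKM in HuES64, 1.49-fold lower in HuES53, and 8.0% of tested genes had a lower difference. It ranked 105 in HuES53 and 86 in HuES64. TAGLN2, its broadly expressed paralog, was nearly level at 371 FPKM in HuES53 and 387 FPKM in HuES64. TAGLN made up 67.6% of the summed transgelins in HuES53 and 74.9% in HuES64, and TAGLN3 stood at 1.82 and 3.54 FPKM. Relative to ACTA2, a gene often read beside it as a smooth muscle marker, TAGLN was 67.6 times as high in HuES53 and 128 times in HuES64.

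**Figure D2:**
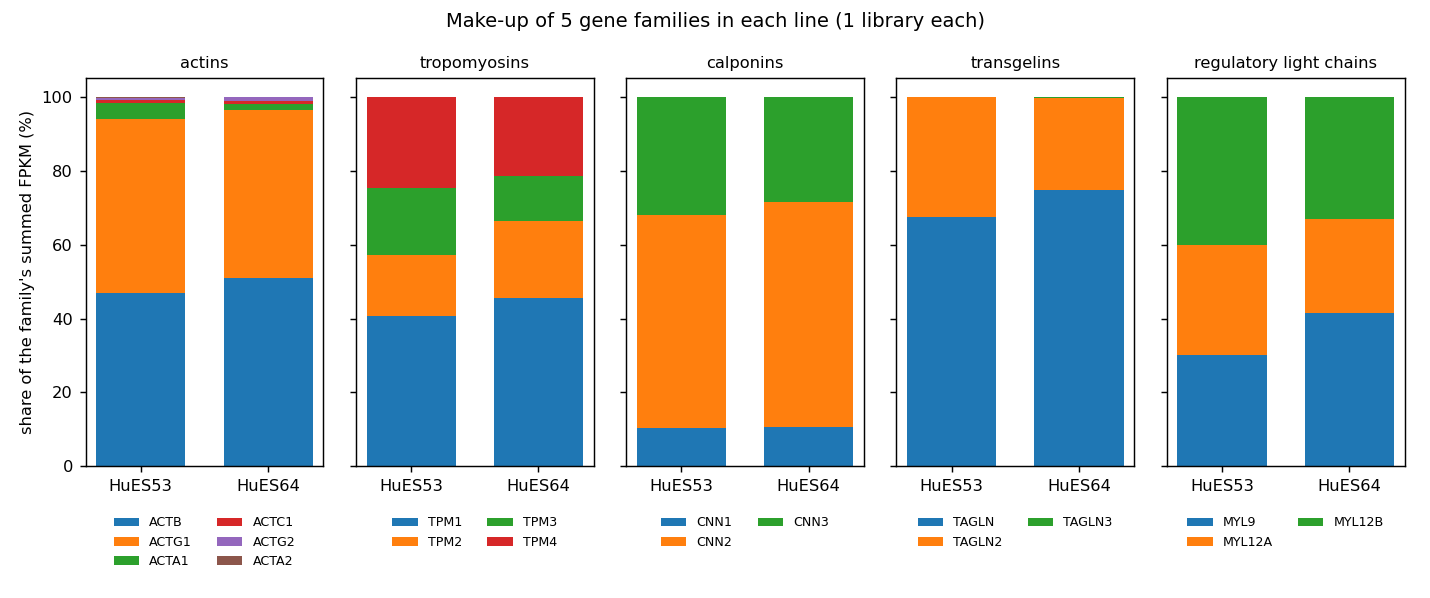
Share of each gene in the summed FPKM of its family, in percent, with HuES53 as the left bar and HuES64 as the right bar of each panel, 1 library each. MYL9 takes 30.1% of the regulatory light chains in HuES53 and 41.5% in HuES64, TAGLN 67.6% and 74.9% of the transgelins, and CNN1 10.5% and 10.7% of the calponins.

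SRF itself was level. SRF (chromosome 6, 43138920 to 43149244) stood at 24.2 FPKM in HuES53 and 24.0 FPKM in HuES64 and ranked 3977 and 4025. Of 6 cofactor genes, 5 averaged at least 1 FPKM, and all 5 were higher in HuES53. Of all tested genes, 47.5% were lower. The median difference of the 5 was 0.22, against 0.03 for all tested genes, and ELK1 was at 0.02. With median of ratios scaling ELK1 crossed 0, so that 4 of 5 were higher. MKL1 and MKL2 had no matched GC content. With the trend of GC content and length removed, as described below, 3 cofactors were left, all higher. MKL1, which encodes MRTF-A, stood at 15.5 FPKM in HuES53 and 14.3 FPKM in HuES64, and MKL2, which encodes MRTF-B, at 3.04 and 1.95 FPKM. ELK3, which encodes an ETS-domain partner of SRF, was the one cofactor past 2-fold, at 10.01 FPKM in HuES53 and 4.08 FPKM in HuES64. ELK1 stood at 18.1 and 17.9 FPKM and ELK4 at 4.03 and 3.31 FPKM. MYOCD, the SRF cofactor of smooth and cardiac muscle, stood at 0.496 FPKM in HuES53 and 0.472 FPKM in HuES64.

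Set side by side, 7 of the 10 genes were lower in HuES53 and 3 were higher, with a median difference of -0.16, against 0.03 for all 13790 tested genes. None of the 10 differed by 2-fold. Of all tested genes, 3.86% did, 2.15% with the higher value in HuES53 and 1.7% with the lower, or 297 and 235 genes (720 and 182 with TPM scaling). Within the interquartile range of all differences, -0.26 to 0.32, lay 5 of the 10, and MYL9 was the one gene beyond 1.5-fold. Genes lower in HuES53 by any amount made up 47.5% of all tested genes, but 75.2% of the 1061 genes that averaged 100 FPKM or more, a level chosen after the values were seen. Of the 10 genes, 7 had such a mean and 6 of these were lower in HuES53. At that level the share of the members is near that of other abundant genes. Together the 10 genes held 1.37% of all FPKM in HuES53 and 1.33% in HuES64. The totals differed, at 601128 FPKM in HuES53 and 713421 FPKM in HuES64. The row overlapping ACTB, at 2999 and 4231 FPKM, is not counted among the 10 genes. The order of the 2 shares therefore depends on how its fragments are assigned.

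**Figure D3:**
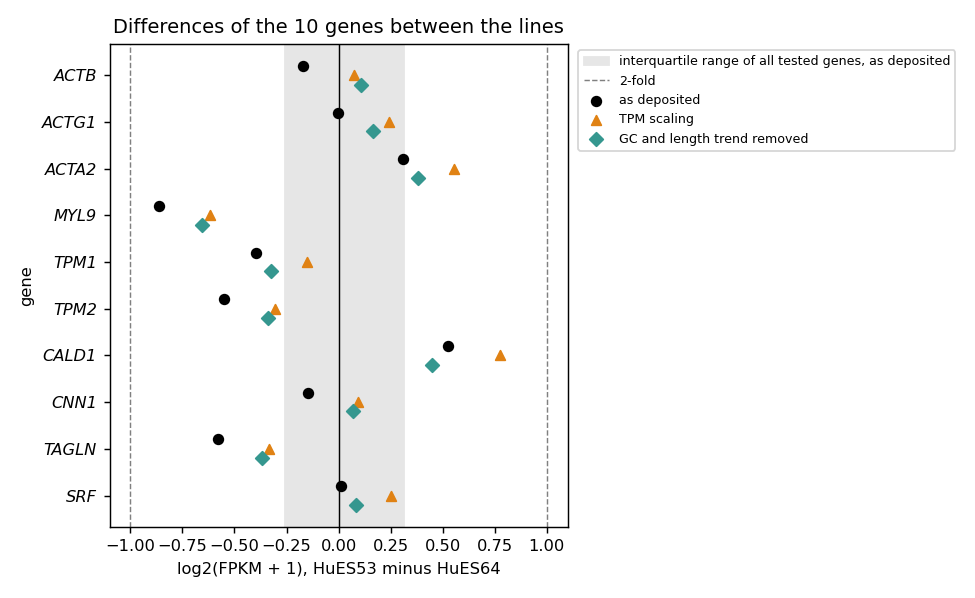
Difference of log2(FPKM + 1), HuES53 minus HuES64, for each gene as deposited (circles), with TPM scaling (triangles) and after removal of the trend with GC content and length (diamonds); the grey band is the interquartile range of all tested genes. MYL9, TPM1, TPM2 and TAGLN lie left of 0 and ACTA2 and CALD1 right of 0 in all 3, while ACTB, ACTG1 and CNN1 cross 0, and no gene reaches 2-fold.

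Across the tested genes the difference depended on the GC content of the transcripts, with a Spearman correlation of -0.49 over 11916 genes, which are not independent replicates. The median GC content was 60.9% for MYL9, 58.9% for TPM2, 58.6% for TAGLN and 50.2% for TPM1, and 46.7% for CALD1 and 51.9% for ACTA2. The 10 genes did not sort by GC content alone. SRF, also at 60.9%, had a difference of 0.01, and ACTB, at 62.1%, one of -0.17. CNN1 was at 59.3% with -0.15, and ACTG1 at 57.8% with -0.0044. With the trend of GC content and length removed, MYL9 was at -0.65, TAGLN at -0.37, TPM2 at -0.34 and TPM1 at -0.32. CALD1 was at 0.45 and ACTA2 at 0.38. ACTB (0.11), ACTG1 (0.17) and CNN1 (0.07) moved above 0, so 4 of the 10 genes were then lower in HuES53. TPM scaling, which raised the median of all tested genes to 0.25, also left those 4 lower.

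**Figure D4:**
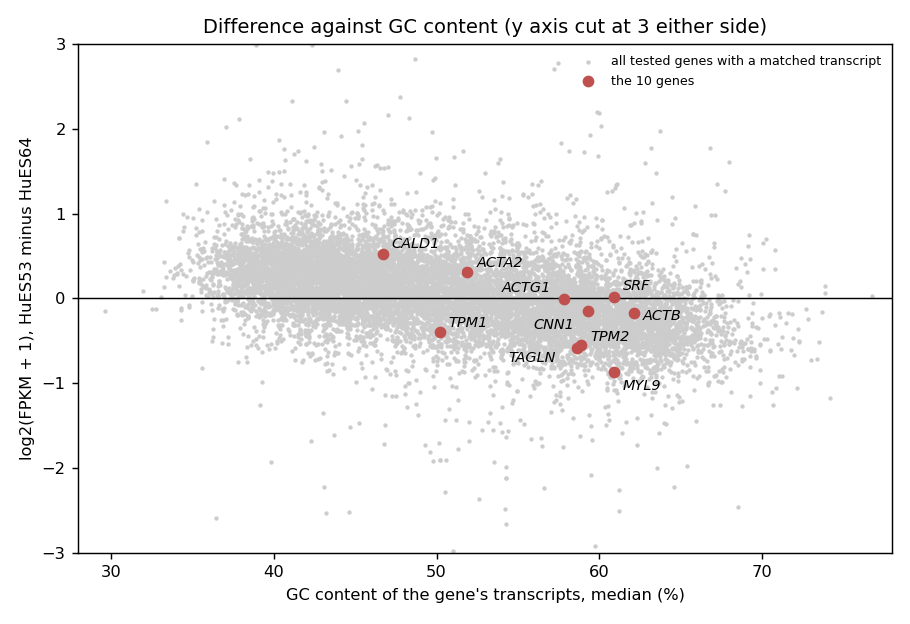
Difference of log2(FPKM + 1), HuES53 minus HuES64, against the median GC content in percent of a gene's transcripts, with all tested genes in grey and the 10 genes in red. The cloud slopes downward, with CALD1 above 0 at 46.7% GC and MYL9 below 0 at 60.9% GC. SRF, also at 60.9% GC, lies at 0.01.

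Past 2-fold were 1 of 3 other expressed actins, 1 of 5 SRF cofactors and 1 of 11 genes of myosin II and its regulators. Of other cytoskeletal SRF targets 1 of 28 was, and of immediate early SRF targets 2 of 7. None was among 16 genes of filament turnover, 9 of the Arp2/3 complex and 6 other tropomyosins, calponins and transgelins. Of all tested genes, 3.86% reached that size. No list was tested against that share. Among 28 other cytoskeletal genes listed as SRF targets, 14 were higher in HuES53 and 14 lower, with a median difference of 0.01; with TPM scaling it was 21 higher and 7 lower. CSRP1, a LIM-domain protein of smooth muscle, stood at 35.4 FPKM in HuES53 and 9.21 FPKM in HuES64 and was the one gene of this list past 2-fold on the log2(FPKM + 1) scale. With a pseudocount of 0.1 FPKM, TGFB1I1 was also past 2-fold, lower in HuES53. The most abundant by the mean of both lines were DSTN, an actin-depolymerising factor, at 240 FPKM in HuES53 and 206 FPKM in HuES64, WDR1, a cofactor of actin disassembly, at 187 and 201 FPKM, and FLNA, an actin crosslinker, at 179 and 180 FPKM. TGFB1I1, a focal adhesion gene, was the lowest in HuES53 relative to HuES64, at 5.66 and 11.8 FPKM.

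Of 11 expressed genes of myosin II and its regulators, 6 were higher in HuES53 and 5 lower (9 and 2 with TPM scaling). MYH14, a non-muscle myosin heavy chain, stood at 5.55 FPKM in HuES53 and 0.671 FPKM in HuES64. The more abundant heavy chains MYH9 (81.8 and 92.4 FPKM) and MYH10 (50.1 and 40.5 FPKM) differed less. Among 7 expressed immediate early SRF targets, EGR1 (4.83 FPKM in HuES53 and 15.3 FPKM in HuES64) and IER3 (12.9 and 35.97 FPKM) were past 2-fold, both lower in HuES53. EGR1 overlaps another row of the table.

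**Figure D5:**
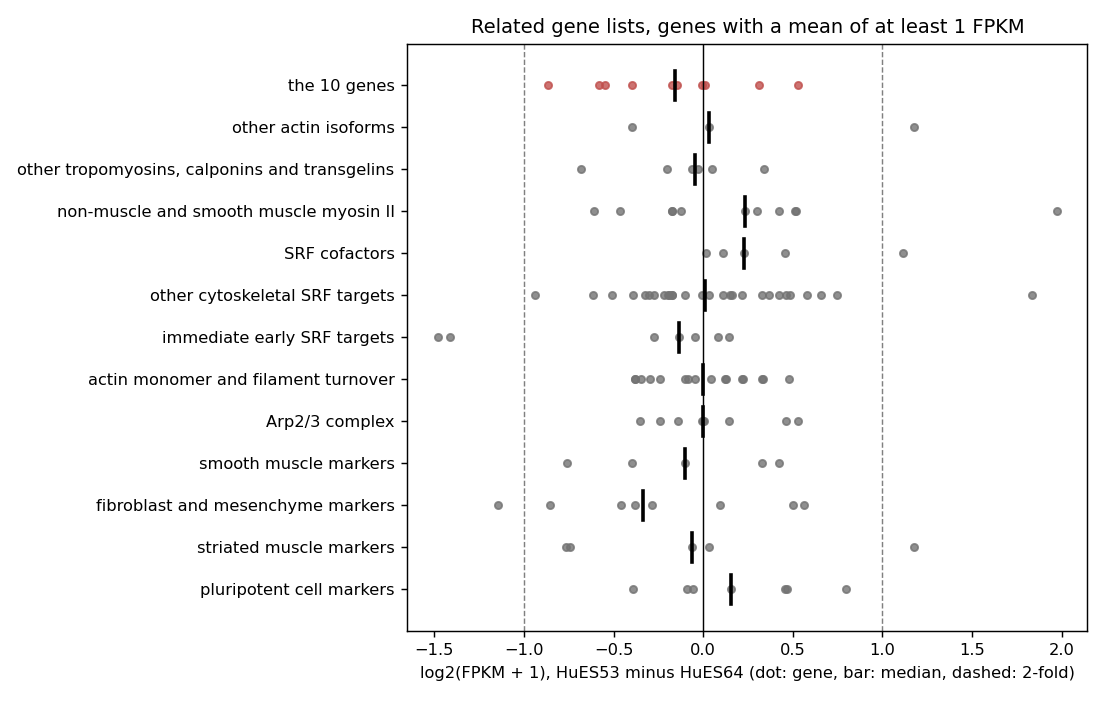
Difference of log2(FPKM + 1), HuES53 minus HuES64, for each gene (dot) of the 10 genes and of 12 related lists, with the median of the list as a bar and 2-fold as dashed lines. The 10 genes spread from -0.86 to 0.53 around a median of -0.16, and the SRF cofactors all lie right of 0.

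Of the 8 smooth muscle markers other than the 10 genes, 7 stood below ACTA2 in both lines, and ACTG2, given above, stood higher. MYH11, the smooth muscle myosin heavy chain, stood at 0.268 FPKM in HuES53 and 0.252 FPKM in HuES64, DES at 2.50 and 4.93 FPKM, and LMOD1 at 1.09 and 1.24 FPKM. SMTN, which encodes smoothelin, stood at 8.48 FPKM in HuES53 and 6.55 FPKM in HuES64, and MYLK, the myosin light chain kinase, at 4.42 and 3.04 FPKM. The 8 markers summed to 64.3 FPKM in HuES53 and 78.5 FPKM in HuES64, most of it ACTG2, and 5 of the 8 averaged at least 1 FPKM. Of 10 striated muscle markers, 5 averaged at least 1 FPKM, 2 of them higher and 3 lower in HuES53 (3 and 2 with TPM scaling). The list summed to 429 FPKM in HuES53 and 302 FPKM in HuES64, with ACTA1 the largest part in both. MYL7, an atrial myosin light chain, stood at 79.6 FPKM in HuES53 and 83.0 FPKM in HuES64, and the troponin genes TNNC1 and TNNT2 at 22.9 and 3.37 FPKM in HuES53 and 39.7 and 6.33 FPKM in HuES64. MYOD1 and MYOG, the skeletal muscle factors, were the 2 markers of this list at 0 in both lines. The 10 fibroblast and mesenchyme markers summed to 524 FPKM in HuES53 and 580 FPKM in HuES64, with 5 of the 8 expressed ones lower in HuES53, among them COL6A2 (66.5 and 121 FPKM) and COL3A1 (3.08 and 8.00 FPKM). The 3 higher in HuES53 were COL1A2 (66.5 and 46.7 FPKM), PDGFRA (2.15 and 1.13 FPKM) and THY1 (243 and 227 FPKM). Once the GC and length trend was removed, 4 of the 8 fibroblast and mesenchyme markers were higher in HuES53 and 4 lower. None of the 10 markers was listed at 0 in both lines, and DCN stood at 0.199 FPKM in HuES53 and 0.438 FPKM in HuES64. The part of such cells in those values was not tested. The pluripotency genes POU5F1, NANOG, SOX2, LIN28A, DNMT3B, TDGF1 and ZFP42 summed to 3036 FPKM in HuES53 and 2996 FPKM in HuES64. Of these 7, 4 were higher in HuES53 and 3 lower (6 and 1 with TPM scaling). POU5F1 stood at 1053 FPKM in HuES53 and 1381 FPKM in HuES64. ZFP42 stood at 99.9 and 57.0 FPKM and was past 2-fold with TPM scaling only.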

How the data were processed

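The authors deposited 1 table of FPKM values with a gene symbol, a locus and 1 column per line. Libraries were made with a TruSeq kit after poly(A) selection, per the labels' protocols. Named in the submitters' processing notes, with no role, are TopHat2 2.0.4 and Cufflinks 2.0.2; build, annotation, strand setting and depth are not given. A best-fitting step of 1 fragment made 17 of 20 low values in HuES53 and 6 of 7 in HuES64 whole within 3%; with the step chosen for its fit on so few values, no depth or counting error was derived from it. Starts count from 0 (1259 of 1298 microRNA genes then had their RefSeq length) and are printed counting from 1. Chromosome Y (136 rows) was left out, and 21 repeated symbols were summed. Differences are of log2(FPKM + 1), HuES53 minus HuES64, for the 13790 genes that averaged 1 FPKM or more; the pseudocount makes folds slightly smaller than plain ratios. No count test suits FPKM, and none was run.

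GC content and length are medians over GENCODE release 29 transcripts, matched by symbol for 86.4% of tested genes; medians over 20 bins of each were subtracted in 5 rounds, a step tested on simulated data. Alternatives were other pseudocounts, filters and scalings, the highest row of a repeated symbol, removal of this trend, and leaving out overlapping loci. The analysis used Python 3.11.15 with numpy 2.4.6 and pandas 2.3.3. The genes and lists were chosen with earlier results of these data known. From lists of over 12 genes, the 3 highest, the largest difference in each direction and any gene past 2-fold could be named; MYH9 and MYH10 were added after their values were seen. One further list is not reported here.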

Additional observations from a re-analysis of the deposited data

How the results depend on the processing

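None of the 10 genes reached 2-fold under any of the 10 alternatives. MYL9, TAGLN, TPM1 and TPM2 were lower and CALD1 and ACTA2 higher in HuES53 under all of them that kept the gene; ACTA2 and TPM1, like ACTB, drop out when overlapping loci are left out. The number lower in HuES53 was 4 with TPM scaling and 4 after removal of the GC and length trend, where the median of the 10 relative to all genes was 0.0355, against -0.19 as deposited. Among all tested genes, the pseudocount of 0.1 FPKM gave 585 of 13790 at least 2-fold higher and 405 lower in HuES53. A minimum mean of 5 FPKM gave 161 of 9661 higher, and TPM scaling 720 of 13790 higher. Removal of the trend gave 131 of 11916 lower, and leaving out overlapping loci 142 of 10053 lower. As deposited, 297 of 13790 were higher and 235 lower. The medians below are relative to all genes. As deposited they were -0.36 for fibroblast and mesenchyme markers, -0.16 for immediate early targets, 0.21 for myosin II and -0.13 for smooth muscle markers. They were 0.20 for SRF cofactors, -0.03 for actin turnover, -0.015 for other cytoskeletal targets and 0.13 for pluripotency genes. With the trend removed they were -0.12 for fibroblast and mesenchyme markers, 0.058 for immediate early targets and -0.0723 for myosin II. With the minimum mean of 5 FPKM they were -0.77 for immediate early targets, -0.14 for myosin II and -0.0257 for smooth muscle markers. With no filter they were 0.0239 for myosin II and 0.0211 for smooth muscle markers. Without overlapping loci they were 0.30 for SRF cofactors, 0.0824 for actin turnover, -0.16 for myosin II, -0.21 for other cytoskeletal targets, 0.26 for pluripotency genes and -0.44 for smooth muscle markers. Leaving out genes makes these lists shorter; apart from that the cause was not tested. With the row overlapping ACTB added to it, an alternative chosen after seeing the data, the shares of ACTB and ACTG1 among actins were 63.8% and 32.2% in HuES53 and 69.9% and 27.9% in HuES64, and that of ACTA1 in HuES53 was 2.81%. No paired analysis was possible because each line has 1 library. No counting error is given, as the step fitted to low values rests on few of them.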

Other observations

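Genes that handle actin monomers and branch filaments were nearly balanced between the lines. Of 16 genes of monomer binding and filament turnover, 8 were higher in HuES53 and 8 lower, none of them past 2-fold; with TPM scaling it was 12 and 4. TMSB10 and TMSB4X, which encode thymosins that sequester actin monomers, stood at 3711 and 2372 FPKM in HuES53 and at 4728 and 2511 FPKM in HuES64. PFN1, the profilin that feeds monomers to growing filaments, stood at 2033 FPKM in HuES53 and 2648 FPKM in HuES64. TWF1, a monomer-binding twinfilin, was highest in HuES53 relative to HuES64, at 20.1 and 14.1 FPKM. Of 9 genes of the Arp2/3 complex, which nucleates branched filaments, 5 were higher in HuES53 and 4 lower, or 8 and 1 with TPM scaling. The actin-related subunits ACTR2 (103 FPKM in HuES53 and 71.4 FPKM in HuES64) and ACTR3 (91.5 and 66.3 FPKM) were the highest in HuES53 relative to HuES64, and ARPC1A (128 FPKM in both) and ARPC2 (245 and 244 FPKM) were level.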
